A study of Sus scrofa with 10 samples.

Results

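Gene families of mitosis and DNA replication were followed in fibroblasts sorted by the surface carbohydrate SSEA-1. Members were taken by symbol: the CENP centromere proteins, the numbered kinesins (KIF), BUB, MCM, CDC and CDK genes, cyclins A, B, D and E, the Aurora and Polo-like kinases, replication factor C, the ribonucleotide reductase subunits and the replicative polymerases, with HMMR, TOP2A, MKI67, PCNA and FEN1. The rule found 69 genes of 6765 on the array with 1 symbol, on 96 probe sets, and each gene was read from its brightest probe set. A symbol rule also gathers genes that share only a name, and the roles below set 45 genes placed in cell cycle roles apart from 24 others. That split is approximate: some of the 24 also act in the cycle, and PLK2 and PLK3 of the 45 are better known from stress responses.

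The cells were porcine fetal fibroblasts, of the Danish Landrace/Yorkshire x Duroc breed at fetal day 24, taken from tissue of the body without the head. They were cultured on gelatin-coated dishes in medium with serum and sorted on magnetic beads by anti-SSEA-1, so that both groups share breed, age, tissue and culture and differ in the sort. The groups were 5 SSEA-1 positive (SSEA1+) and 5 SSEA-1 negative (SSEA1-) fractions, both numbered 1 to 5, with 1 Affymetrix array each. The series calls the 5 replicates biological, but nothing in the sources used here says whether they came from separate embryos or from separate cultures of 1 line, so p-values measure the spread between these samples.

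As background, a dividing cell first loads the MCM helicase on DNA, fires it with CDC45 and copies the genome with polymerases held by the PCNA clamp that replication factor C loads. It then makes B cyclins, which drive CDK1 into mitosis, builds kinetochores from CENP proteins on its centromeres and holds the BUB checkpoint until every chromosome is attached. Transcripts of many of these genes, though not all, are cyclic and low in resting cells. In a bulk sample fewer cycling cells and less of each RNA per cell cannot be told apart.

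Values are log2 signals, so a difference of 1 is a 2-fold change, and a difference is always the SSEA-1 positive minus the negative fraction. A member rose or fell where limma, fitted on all 24123 probe sets, gave an adjusted p under 0.05. On the 10 arrays between 69.3% and 72.5% of probe sets lay above a background of 0.35 set by controls for absent sequences, and 68 of the members had a mean above it. Correlations across probe sets were 0.987 to 0.996 between arrays. Of 11 fibroblast markers 9 were measured and all lay above background, with list means of 7.48 to 7.73 in positive and 7.38 to 7.63 in negative arrays. One of them, COL1A2, passed, with a rise of 1.19 (adjusted p = 0.000434 in limma) and no overlap of the fractions. COL3A1, at a mean of 0.72, lay nearest to background. With the replicate block described below THY1, at 0.34, passed as well (0.0146). Of the lists for 7 other cell types no gene passed without the block, and with it KRT19 of epithelium rose by 0.40 (adjusted p = 0.0272 in limma) and TNNT1 of muscle by 0.30 (0.0488); their part in the members' differences was not tested. CDH5, TEK, PTPRC, SPI1, CD163, ALB and DDX4 lay below background on all arrays, while KRT8, DES, ACTA2 and HBB were clearly above it. Means lay above background for 3 of 6 endothelial, 2 of 5 blood and macrophage, 4 of 5 epithelial and 3 of 3 neural genes. They did so too for 5 of 5 muscle, 3 of 4 hepatic and 2 of 3 pluripotent and germ genes. The poly-A spike-in controls, relative to the hybridisation controls, differed between the fractions without overlap, at -3.65 to -2.81 on positive and -4.52 to -4.00 on negative arrays, and the hybridisation controls themselves did so too, at 7.03 to 7.36 against 6.46 to 6.89. The 3' minus 5' signal of actin overlapped (1.06 to 1.24 against 1.12 to 1.35).

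Most members read lower in the SSEA-1 positive fraction, and few of them passed without regard to the replicate numbers. In all 52 of 69 read lower, where 52.4% of all genes did. Of the 69, 5 fell (CENPF, CDC45, BUB3, CDC123 and CDC5L), 4 rose (CCND2, CDK16, CDC34 and CENPB) and 60 did not pass, where 4.18% of all genes fell and 3.21% rose, 7.39% in either direction. With the replicate number as a block, so that each positive array is set against the negative array of its own number, 24 fell and 4 rose, where 8.62% of all genes fell and 5.65% rose, 14.3% in either direction. The members' own shares were 7.25% and 5.80% without the block and 34.8% and 5.80% with it. Under the block the share that fell stood well above the background, and the share that rose was close to it. The median difference was -0.22 over the members and -0.0085 over all genes.

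With the block most falls were of genes in cell cycle roles. Among the 45 genes of these roles 38 read lower with a median difference of -0.29, 3 fell and 2 rose, and with the block 21 fell and 2 rose. The 24 other members had a median of -0.041, with 2 falls and 2 rises, or 3 and 2 with the block; the difference between these sets was not tested. A cell cycle gene was lower in the positive array of all 5 pairs for 27 of 45 genes, 60.0%, where 16.4% of all genes were, and higher in all 5 for 2, 4.44%, where 12.6% of all genes were. Without regard to pairs, the 5 values of a fraction lay wholly below the other's for 3 of the 69 members and wholly above for 4, where 4.55% and 3.96% of all genes did. Without negative replicate 2 the falls among members numbered 18 in place of 5, where 6.28% of all genes fell. There were 13 falls without both arrays of replicate 2, where 4.11% of all genes fell, and 2 without negative replicate 3 or 5, where 2.03% and 2.13% did. Without positive replicate 1, 2 or 5 or negative replicate 4 the falls numbered 3, where 2.19% to 2.84% of all genes fell. Without both arrays of replicate 1, 3 or 5 none fell and 1, CCND2, rose in limma, where 0.976% to 1.08% of all genes fell, while 19, 18 and 13 lay lower at an unadjusted p under 0.05. When the poly-A level was added to the limma model no member passed, and 28 lay lower and 5 higher at an unadjusted p under 0.05. CENPF then differed by -1.63, CDC45 by -2.16, BUB3 by -0.69, CCND2 by 0.52 and CDC34 by 0.16. Since that level separates the fractions without overlap, its part in these differences cannot be told apart from the sort. In that model the share of all genes that passed is not given here. Nor is the share at an unadjusted p under 0.05, there or in the leave-outs.

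**Figure D1:**
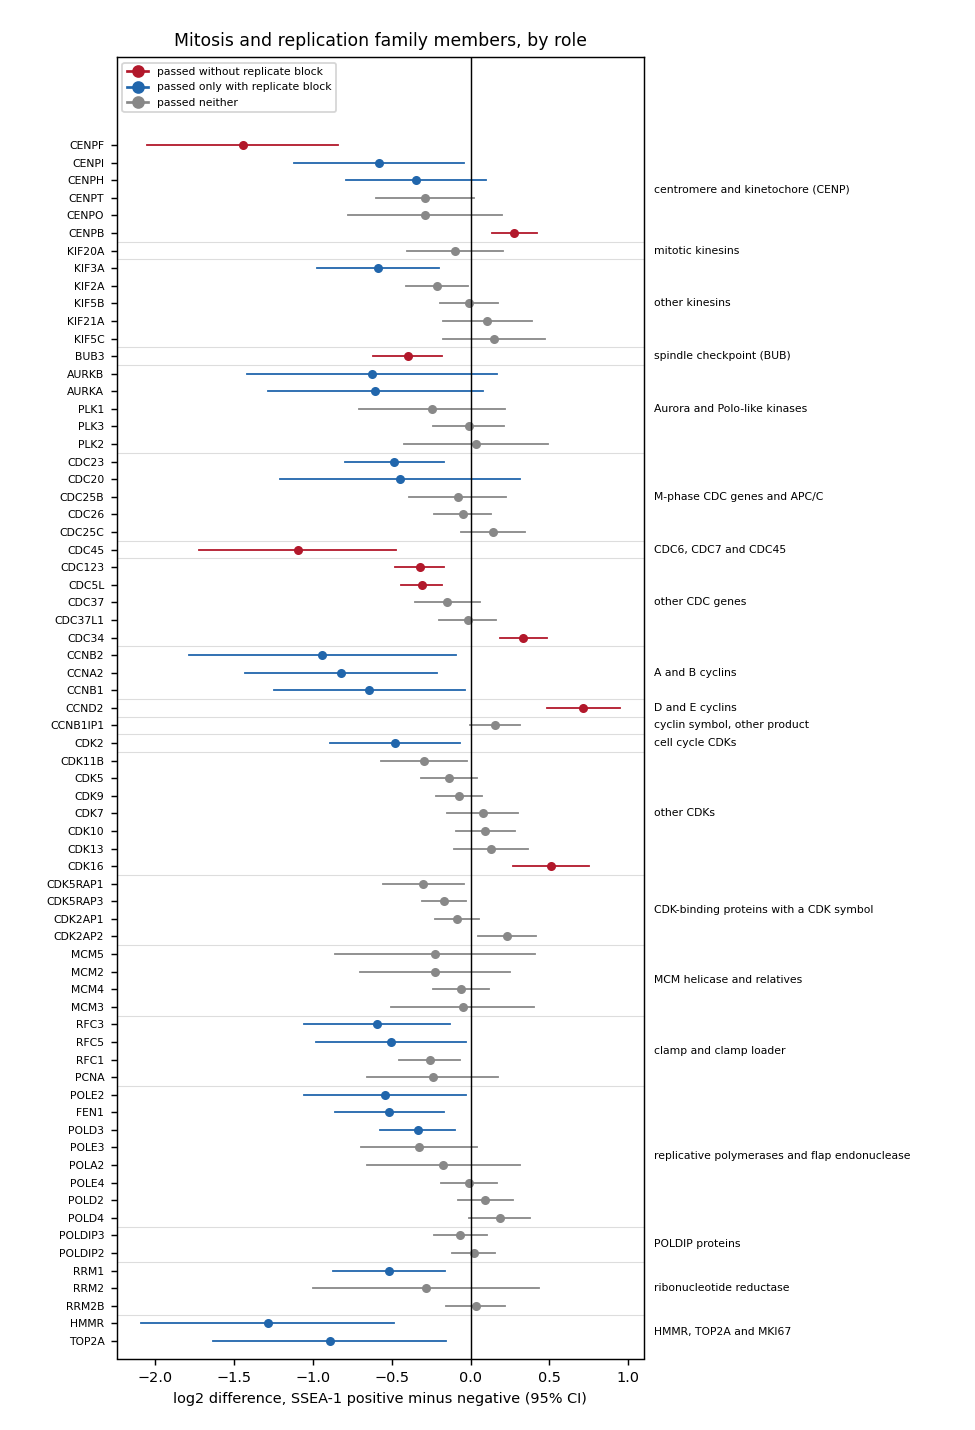
Difference of each of the 69 members between the fractions on the log2 scale, with its 95% confidence interval from limma, grouped by role. Red members passed without the replicate block and blue ones only with it; the lowest are CENPF at -1.44 and HMMR at -1.29, and the highest is CCND2 at 0.72.

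Centromere and kinetochore proteins held the largest fall. CENPF, a kinetochore protein that builds up toward mitosis, read 3.84, 3.52, 4.20, 5.03 and 4.59 in positive replicates 1 to 5 and 5.51, 4.89, 6.30, 5.91 and 5.79 in the negative ones. Every positive array lay below its own partner, but positive replicate 4 lay above negative replicate 2, so the fractions overlapped. Its mean was 4.23 ± 0.60 against 5.68 ± 0.52 (SD, n = 5 each), a fall by 1.44 ± 0.28 (SE, adjusted p = 0.0105 in limma and 0.000384 with the block). The call made without the block ended when both arrays of replicate 1, 3 or 5 were left out, at adjusted p-values of 0.0637, 0.0656 and 0.0513. Leave-outs were not fitted with the block. CENPH and CENPI, subunits of the constitutive centromere network on which kinetochores are built, differed by -0.34 and -0.58 and passed only with the block, at 0.0206 and 0.0215. Network members CENPO and CENPT differed by -0.29 and -0.29 and did not pass either way. CENPB, which binds a repeated motif of centromeric DNA, went the other way. It read 2.81, 2.63, 2.84, 2.69 and 2.71 in the positive and 2.50, 2.46, 2.40, 2.39 and 2.53 in the negative arrays, all positive arrays above all negative ones. It rose by 0.28 ± 0.067 (SE, adjusted p = 0.0276), a call that ended without positive replicate 1, 3 or 5 or negative replicate 3 or 4, at up to 0.0748, and under trend and robust settings, at 0.0811. With leave-outs of pairs counted too, the call ended in 9 of 15, at up to 0.147 in limma.

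BUB3, the only BUB gene measured, carries checkpoint proteins to unattached kinetochores. Its signal was 6.87, 6.82, 7.07, 7.01 and 6.79 in the positive and 7.18, 7.09, 7.44, 7.61 and 7.23 in the negative fraction, with no overlap. It fell by 0.40 ± 0.10 (SE, adjusted p = 0.0364 in limma, 0.00595 with the block), and the call without the block ended when positive replicate 1, 2 or 5 or negative replicate 3, 4 or 5 was left out, at up to 0.0942. With leave-outs of pairs counted too, that call ended in 10 of 15, at up to 0.140 in limma. Of the kinases, AURKA of the spindle poles and AURKB of the chromosomal passenger complex differed by -0.60 ± 0.31 and -0.62 ± 0.37 (SE). Both were lower in 5 of 5 pairs and passed only with the block (0.00537 and 0.00836). PLK1, the Polo-like kinase of mitosis, was lower in 5 of 5 pairs at -0.25 but missed the threshold with the block (adjusted p = 0.0537). Its relatives PLK2 and PLK3, better known from stress responses, differed by 0.035 and -0.012. KIF20A, a kinesin that acts in cytokinesis, lay near background at 0.48 against 0.58 and exceeded it on 7 of 10 arrays.

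The anaphase-promoting complex, which ends mitosis by marking cyclin B for destruction, was uneven. CDC20, the activator, was lower in 5 of 5 pairs at -0.45 ± 0.35 (SE), with an adjusted p of 0.548 in limma and 0.00859 with the block, but read 0.10 with the block and the poly-A covariate together. The subunit CDC23 read 4.52, 4.07, 4.62, 4.37 and 4.32 in the positive and 4.85, 4.36, 5.13, 5.18 and 4.81 in the negative fraction. Negative replicate 2 lay within the range of the positive arrays. Its difference was -0.48 ± 0.15 (SE, adjusted p = 0.0683, and 0.00537 with the block). The small subunit CDC26 differed by -0.049 (95% confidence interval -0.23 to 0.13). CDC25B, a phosphatase that activates CDK1, differed by -0.082 (-0.39 to 0.23), and CDC25C, of the same family, differed by 0.14 and exceeded background on 4 of 10 arrays.

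The mitotic cyclins A and B read lower in every pair, whereas the D cyclin rose. CCNB2 read 3.49, 2.87, 4.62, 4.18 and 3.50 in the positive and 4.29, 3.40, 5.38, 5.61 and 4.68 in the negative fraction. CCNB1, the main partner of CDK1, read 6.58, 5.82, 6.95, 7.06 and 6.61 against 7.10, 6.28, 7.71, 7.87 and 7.27. CCNA2, which serves S phase and mitosis, read 1.97, 1.64, 2.35, 2.15 and 1.87 against 2.56, 1.74, 3.37, 3.66 and 2.76. In all 3 genes replicate 2 was the lowest array of both fractions, and the negative array of replicate 2 lay below 4 of the 5 positive ones. The differences were -0.94 ± 0.39, -0.64 ± 0.28 and -0.82 ± 0.28 (SE), with adjusted p-values of 0.197, 0.219 and 0.113 in limma and 0.00102, 0.000769 and 0.00878 with the block. CCND2, a D cyclin that pairs with CDK4 and CDK6 in G1 and answers to growth signals, read 7.98, 7.67, 7.89, 7.40 and 7.80 in the positive and 7.17, 7.15, 6.92, 7.04 and 6.88 in the negative fraction. Every positive array lay above every negative one. It rose 1.64-fold, by 0.72 ± 0.11 on the log2 scale (SE, adjusted p = 0.00229), with pair differences of 0.36 to 0.97, and stayed past the threshold without each array or pair. CDK2, the partner of E and A cyclins, differed by -0.48 ± 0.19 (SE, adjusted p = 0.177, and 0.0118 with the block) and was lower in 5 of 5 pairs. Its other probe sets, dimmer at means of 1.05 and 0.45, did not show this fall. They read -0.043 and 0.0073 and did not pass with or without the block.

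HMMR and TOP2A were lower in every pair, with the largest levels in negative replicates 3 and 4 as for the mitotic cyclins. HMMR, a hyaluronan receptor that also binds the spindle, read 1.84, 1.13, 2.20, 2.38 and 1.81 in the positive and 2.55, 1.91, 3.79, 4.27 and 3.27 in the negative fraction. TOP2A, the topoisomerase that untangles sister chromatids, read 4.79, 4.38, 5.996, 5.69 and 5.36 against 5.95, 5.05, 6.77, 6.81 and 6.10. The fractions overlapped through negative replicate 2 in HMMR and negative replicates 1 and 2 in TOP2A. The differences were -1.29 ± 0.37 and -0.89 ± 0.34 (SE), with adjusted p-values of 0.0591 and 0.158 in limma and 0.000895 and 0.000384 with the block. MKI67 had no probe set with its symbol alone and was not analysed here, and the same holds for CDK1, CCND1, CCNE1, MCM6 and MCM7.

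**Figure D2:**
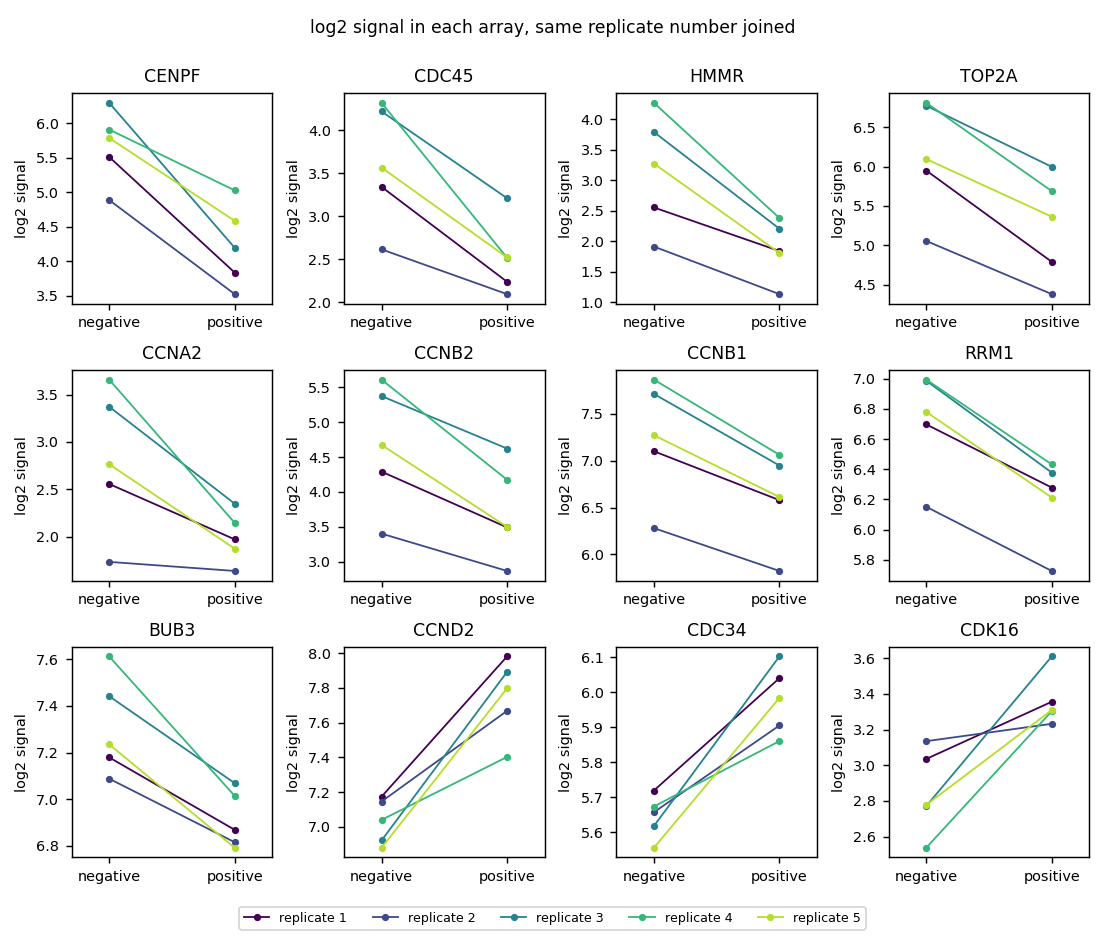
log2 signal of 12 members on each of the 10 arrays, with a line joining the arrays of 1 replicate number from the SSEA-1 negative to the positive fraction. The lines of CENPF, CDC45, HMMR, TOP2A, CCNA2, CCNB2, CCNB1, RRM1 and BUB3 slope down in 5 of 5 pairs and those of CCND2, CDC34 and CDK16 slope up in 5 of 5.

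Replication genes gave 1 call without the block; differences between steps of replication were not tested. CDC45, which completes the active helicase, read 2.24, 2.09, 3.21, 2.52 and 2.52 in the positive and 3.34, 2.62, 4.22, 4.32 and 3.57 in the negative fraction. Each positive array lay below its partner, and only negative replicate 2 and positive replicate 3 kept the fractions from parting. It fell by 1.10 ± 0.29 (SE, adjusted p = 0.0421 in limma, 0.00117 with the block), with pair differences of -1.80 to -0.52. The call without the block ended in 8 of 10 leave-outs of 1 array, at up to 0.106, and held without positive replicate 3 or without negative replicate 2. With leave-outs of pairs counted too, it ended in 12 of 15, at up to 0.153 in limma. Taking the mean of its probe sets ended it as well (0.0588) as did trend and robust settings (0.104). The MCM helicase subunits themselves gave no call. MCM2 differed by -0.22 (95% confidence interval -0.70 to 0.25), MCM3 by -0.048 (-0.50 to 0.41), MCM4 by -0.058 (-0.24 to 0.12) and MCM5 by -0.23 (-0.86 to 0.41). Of these only MCM2 and MCM5 were lower in 5 of 5 pairs, at adjusted p-values of 0.112 and 0.130 with the block.

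Of the clamp and its loader 4 of 4 genes read lower and 2 fell with the block. Of the polymerases and FEN1 6 of 8 read lower and 3 fell with it. No gene of either group passed without the block. Among all genes 52.4% read lower, 8.62% fell with the block and 7.39% passed without it. RFC3 and RFC5, small subunits of the loader, differed by -0.59 ± 0.21 and -0.50 ± 0.22 (SE), with block-adjusted p-values of 0.00602 and 0.00360. The large subunit RFC1 differed by -0.26 (0.0668 with the block). PCNA, the clamp, read 6.07, 5.50, 6.36, 6.02 and 5.86 against 6.02, 5.60, 6.50, 6.70 and 6.19 and differed by -0.24 (95% confidence interval -0.66 to 0.17), lower in 4 of 5 pairs. POLE2, a subunit of the leading-strand polymerase, read 1.57, 1.20, 2.39, 2.05 and 1.81 against 2.08, 1.65, 2.67, 2.87 and 2.46. Its difference of -0.54 ± 0.24 (SE) passed with the block (0.00298), as did POLD3 of polymerase delta at -0.34 (0.0445) and the flap endonuclease FEN1 at -0.51 (0.00371). POLE3 at -0.33 and POLA2 at -0.17 did not pass, nor did POLE4, POLD2 and POLD4, between -0.012 and 0.19. Ribonucleotide reductase, which makes the DNA precursors, was uneven. RRM1, the large subunit, read 6.28, 5.73, 6.38, 6.43 and 6.21 in the positive and 6.70, 6.15, 6.99, 6.99 and 6.78 in the negative fraction, with pair differences of -0.61 to -0.42. Its difference was -0.52 ± 0.16 (SE, adjusted p = 0.0841 in limma, 0.00116 with the block). The S-phase subunit RRM2 was also lower in 5 of 5 pairs, at -0.28 (95% confidence interval -0.997 to 0.44), and missed the threshold with the block (0.0561). RRM2B, the p53-inducible subunit, differed by 0.032.

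Members placed outside the cell cycle roles, some of which also act in the cycle, changed in both directions. CDC5L, a spliceosome protein, read 6.004, 6.06, 6.06, 5.99 and 6.04 in the positive and 6.33, 6.25, 6.42, 6.37 and 6.34 in the negative fraction. CDC123, an assembly factor of the translation initiation factor eIF2, read 5.49, 5.23, 5.36, 5.47 and 5.45 against 5.72, 5.58, 5.77, 5.76 and 5.77. Neither gene's fractions overlapped, and they fell by 0.31 ± 0.061 and 0.32 ± 0.073 (SE, adjusted p = 0.0106 and 0.0205); the call of CDC123 ended without negative replicate 3 or 5, at 0.0569 and 0.0549. CDC34, the ubiquitin-conjugating enzyme of SCF ligases, read 6.04, 5.91, 6.10, 5.86 and 5.98 against 5.72, 5.66, 5.62, 5.67 and 5.56 and rose by 0.33 ± 0.069 (SE, adjusted p = 0.0135). CDK16, a kinase activated by cyclin Y and not by the cell cycle cyclins, read 3.36, 3.23, 3.61, 3.30 and 3.31 against 3.04, 3.14, 2.77, 2.54 and 2.78 and rose by 0.51 ± 0.11 (SE, adjusted p = 0.0178). For both, all positive arrays lay above all negative ones. The mean of a gene's probe sets ended the calls of CDC5L (0.125), CDC123 (0.120) and CDK16 (0.0747). The calls of all 4 genes ended without both arrays of replicate 1, 3 or 5. The remaining CDKs of transcription and other duties, CDK5, CDK7, CDK9, CDK10, CDK11B and CDK13, differed by -0.29 to 0.13 and none passed. Of the other kinesins KIF3A, a motor of cilia, differed by -0.59 ± 0.18 (SE, adjusted p = 0.0734, and 0.0216 with the block), but 0.027 with the poly-A covariate. KIF2A, a microtubule depolymerase that also works at spindle poles, at -0.21, and KIF5B, KIF21A and KIF5C, between -0.0095 and 0.15, did not pass. CDC37, a partner of HSP90, and its relative CDC37L1 differed by -0.15 and -0.018, and CDK2AP1, CDK2AP2 and CDK5RAP3, which bind CDKs or their partners, by -0.085, 0.23 and -0.17, with no call. CDK5RAP1, a modifier of mitochondrial transfer RNA, at -0.30, CCNB1IP1, a meiotic ligase, at 0.15 and the polymerase-interacting POLDIP3 at -0.064 and POLDIP2 at 0.021 did not pass with or without the block.

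Cell cycle genes differed between replicate numbers as well as between fractions. Replicate 2 held the lowest array of both fractions for 31 of the 45 genes, 68.9%, where it did so for 15.5% of all genes and for 3 of the 24 members outside these roles. The negative array of replicate 4 was the highest of its fraction for 29 of the 45 genes, and for 2049 of all 6765 genes. The positive array of replicate 3 was the highest of its fraction for 24 of the 45, and for 1505 of all genes. Over the cell cycle genes the median signal was 3.51, 2.97, 4.02, 4.01 and 3.52 in positive replicates 1 to 5 and 3.92, 3.39, 4.33, 4.32 and 4.06 in the negative ones. The positive array was the lower of the 2 in each pair, and negative replicate 2 lay below 4 of the 5 positive arrays. The spread of a gene's 10 values that lay between replicate numbers had a median of 63.7% over these genes, 34.3% over the other members and 46.4% over all genes, and the share between fractions 23.8%, 29.0% and 15.8%. The share between replicates was 92.3% for MCM5 and 92.5% for RRM2, which gave no call with the block. It was also high for genes that fell with the block, at 86.8% for CDC20 and 77.2% for CENPH. For CENPF it was 27.0% and for CCND2 8.60%. The pairs differed in the size of the shift: the median difference over the cell cycle genes was -0.27, -0.16, -0.31, -0.56 and -0.35 in pairs 1 to 5, smallest in pair 2 and largest in pair 4.

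**Figure D3:**
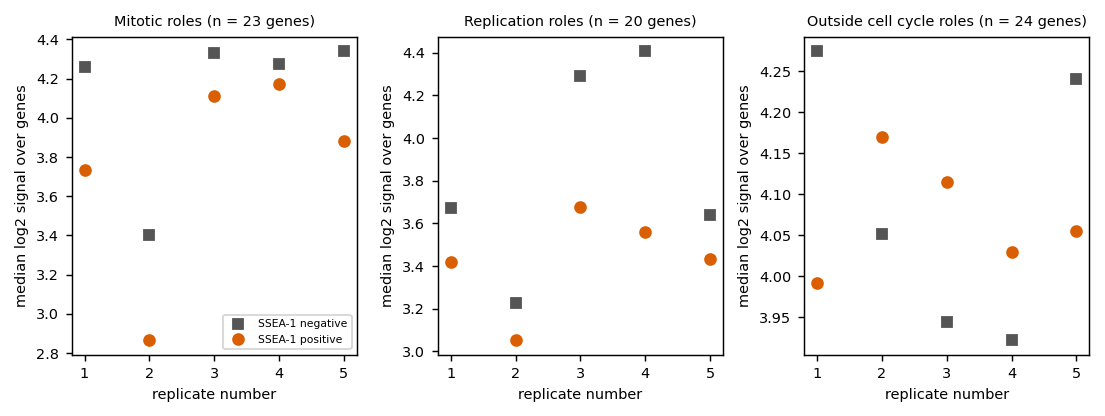
Median log2 signal on each array over members in mitotic roles, in replication roles and outside cell cycle roles, by replicate number, with squares for the SSEA-1 negative and circles for the positive fraction. In both cell cycle panels the positive array is the lower of each pair and replicate 2 is lowest in both fractions, with mitotic medians of 2.87 and 3.40.

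**Figure D4:**
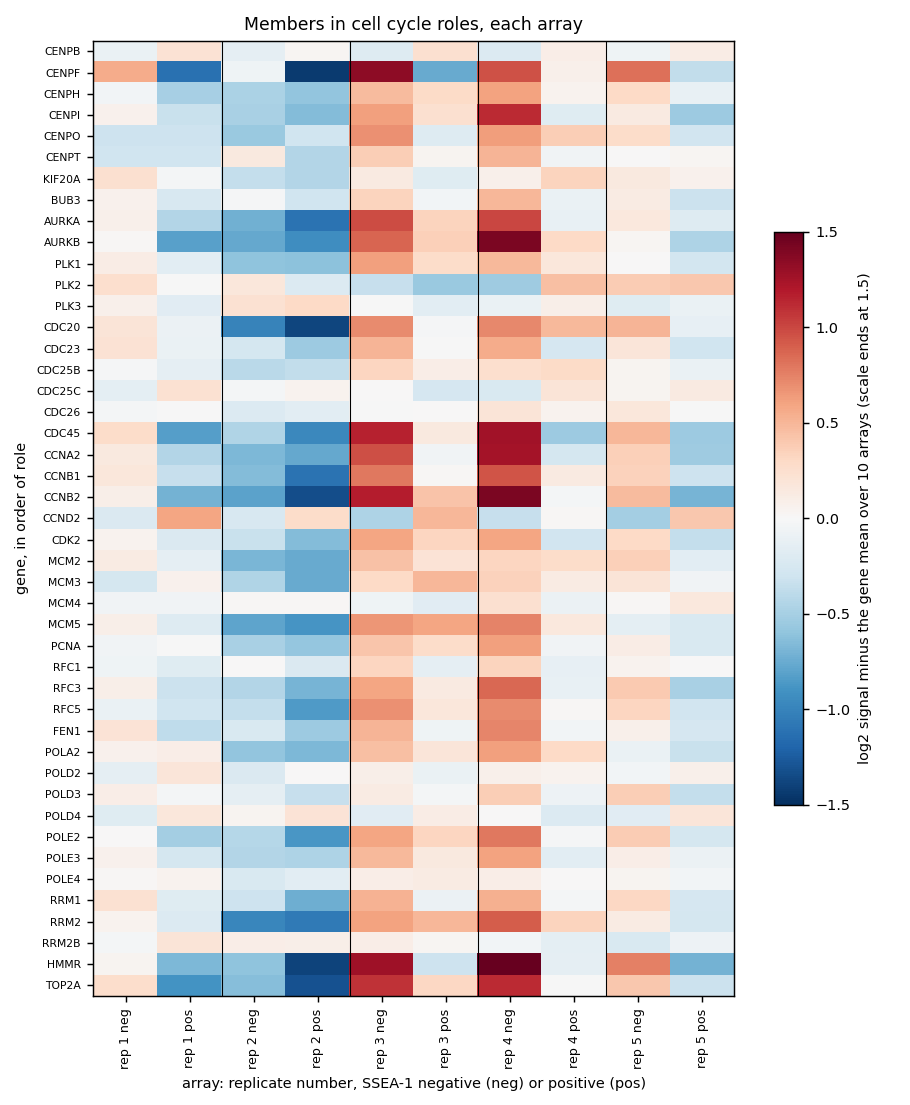
log2 signal of the 45 members in cell cycle roles on each array, as the deviation from the gene's mean over the 10 arrays, with the negative and positive array of a replicate number side by side. Both arrays of replicate 2 are blue (low) for most genes, and negative replicates 3 and 4 are red (high), while CCND2 and CENPB are redder in the positive array of each pair.

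Cell cycle genes outside the symbol rule mostly read lower, and more of them than of all genes fell once pairs were used. Of 156 listed, 74 were measured and 64 read lower, with a median difference of -0.30. In limma 3 fell and none rose. An unadjusted p under 0.05 was found for 25, all lower, where 1610 of all 6765 genes had one in either direction. The share of the 74 that fell, 4.05%, was close to that of all genes, 4.18%. With the block 34 fell, 45.9% where 8.62% of all genes did, and none rose. Without negative replicate 2 the falls numbered 22, where 6.28% of all genes fell. With the poly-A covariate none passed while 42 lay lower at an unadjusted p under 0.05, and the share of all genes is not given here. Of 38 other mitosis genes none passed without the block, with 11 at an unadjusted p under 0.05, and 20 fell with it. Of 7 condensin and cohesin genes SMC4, the condensin ATPase, fell by 0.82 and ESCO1, the cohesin acetyltransferase, by 0.83, and 4 fell with the block. Of 29 other replication genes RPA1, the large subunit of the protein that coats single-stranded DNA, fell by 0.52 ± 0.12 (SE, adjusted p = 0.0224), and 10 fell once pairs were used. The call of RPA1 ended without positive replicate 2 or 5 or negative replicate 3, at up to 0.0640. With leave-outs of pairs counted too, it ended in 6 of 15, at up to 0.105 in limma. That of SMC4 ended in 2 of 15, at up to 0.0618. Replicate 2 was the lowest array of both fractions for 47 of the 74, or 63.5%. With the block the 34 included DLGAP5, a spindle protein, at -1.06, NEK2, a centrosome kinase, at -0.99 and CLSPN, a replication fork adaptor, at -0.72, which were named after their values were seen.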

How the data were processed

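The deposited values, from 10 arrays, are log2 signals, which the authors made by RMA, per the submitters' processing notes. Its version is not given in the sources used here. They were used without further normalization. Background was the 95th percentile of 23 controls for absent sequences, 0.35, and the number of arrays limits the precision. Probe sets were named through the platform annotation, 10069 with 1 symbol once controls were left out and 198 with several, which were not named. All 69 members matched a RefSeq gene table of Sscrofa11.1 by Entrez identifier, with no symbol changed, and that table served for names alone.

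Fractions were compared with limma 3.58.1 in R 4.3.3 (lmFit and eBayes, group alone) on all 24123 probe sets, controls included, with Benjamini-Hochberg adjustment over all of them, and the members' values were read from that fit. Members, role groups, gene lists and the rule for named genes were chosen with earlier results of these data known. Named genes were the members past the threshold, the largest difference in each role, fixed names, the 10 smallest p-values with the replicate block and up to 8 other cell cycle genes past the threshold; members outside it appear to account for their role, and were named after their values were seen. Replicate numbers were taken as pairs, since by the series text a replicate was sorted into both fractions. The correlation of deviations from the fraction means between arrays of 1 number was 0.21, 0.58, 0.36, 0.12 and 0.25 for replicates 1 to 5. Each array of replicate 4 had a higher correlation with some other number, up to 0.31, and its pairing is the least certain. Between-replicate spread is the share of a gene's sum of squares over 10 arrays that lies between replicate numbers.

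Alternatives were the replicate block, eBayes with trend and robust settings, repeated quantile normalization, cyclic loess, a filter on low values, the mean of a gene's probe sets, an exact rank-sum test, the poly-A level alone and with the block, and leaving out each array or pair. All leave-outs were fitted without the block. In simulated arrays of 24123 probe sets, drawn from their observed means and spread, 98.0% of 2-fold and 69.0% of 1.5-fold changes among 200 were recovered, and 6.18% of calls were false. The simulated spread was independent between probe sets, with no effect shared by a replicate number. The 200 were drawn at random, so these rates are not recovery rates for the members. Promoter letters, planned as a description, were not analysed here.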

Additional observations from a re-analysis of the deposited data

Results flagged for a closer look

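Among 82 groups of 5 arrays, 4 had 1 array far from the other 4 by Dixon's test, which flags about 1 group in 20 by chance. All 4 were in the SSEA-1 negative fraction, and 3 of them were low values of replicate 2. KIF20A read 0.17 on negative replicate 2, below background, against 0.61 on the nearest array. MCM2 read 3.48 on that array against 4.28. The median over members in mitotic roles was 3.40 there against 4.26. MCM4, a dim gene, read 1.54 on negative replicate 4 against 1.32 on the nearest array.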

How the results depend on the processing

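As reported, there were 5 falls and 4 rises among 69 members and 3 falls among 74 other cell cycle genes. With the replicate block the falls were 24 and 34. The mean of a gene's probe sets gave 3 and 5 falls, and trend and robust settings gave 5 falls among the other genes. The exact rank-sum test, the poly-A covariate and the covariate with the block gave 0 falls and 0 rises in both sets. With them 10, 28 and 13 members lay lower at an unadjusted p under 0.05, and the shares of all genes are not given here. The smallest exact p that 5 against 5 arrays allow is 0.00794. Members with fractions wholly apart had that p and still did not pass after adjustment over all probe sets. No probe set could therefore pass the rank-sum test, and its 0 calls do not bear on the members. Leaving out arrays or pairs gave 0 to 18 falls and 1 to 4 rises among members and 1 to 22 falls among the other genes. The median difference of the members stayed below 0, from -0.34 with the poly-A covariate to -0.12 in the leave-outs. Of 36 named genes the block ended no call and added 14. Cyclic loess and the filter on low values changed none of the 36 calls, and quantile normalization ended that of CDC45 (adjusted p = 0.0537). None of the 9 members and 3 other genes called without the block turned direction. Of the 24 members that fell with the block 2 turned under the normalization, poly-A and leave-out alternatives: KIF3A with the poly-A covariate and CDC20, at 0.10, with the covariate and the block. With the covariate KIF3A read 0.027 and MCM4 0.090, and with the block beside it the uncalled CCNB1IP1 read -0.11 and KIF20A 0.29. In the leave-outs MCM3 ranged from -0.18 to 0.14, MCM4 from -0.11 to 0.0094 and KIF20A from -0.20 to 0.00065. The cause of these shifts was not tested. Genes near background, such as KIF20A and CDC25C, are limited by signal.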

Other observations

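Of the 69 members 20 had more than 1 probe set, with 27 besides the brightest ones. Of the 26 whose mean lay above background 19 read in the same direction as the brightest, 2 passed in limma and 9 with the replicate block. KIF3A had 4 probe sets, all lower, and the third in brightness fell by 0.41 (adjusted p = 0.0454). The second POLD3 probe set fell by 0.53 (adjusted p = 0.0170) without overlap of the fractions, where the brightest read -0.34 and did not pass. RFC3 read -0.58 on its second probe set against -0.59 on the first, and POLE2 -0.60 against -0.54. For CDC5L the 2 probe sets disagreed: the brightest read -0.31 and the other, at a mean signal of 3.93, -0.049 (adjusted p = 0.832). CDK16 read 0.19 and 0.22 on its other probe sets against 0.51, neither past the threshold, and CDC45 read -0.46 against -1.10. CDK2 read -0.48 on its brightest probe set but -0.043 and 0.0073 on the dimmer ones. The other CDC123 probe set lay near background.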
